A study of Sus scrofa with 6 samples.

Results

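The genes described here encode matrix proteases of the MMP and ADAMTS families and the TIMPs that inhibit them. A list of 10 pig gene symbols set the members: *MMP2*, *MMP14*, *MMP15*, *ADAMTS1*, *ADAMTS2*, *ADAMTS5*, *ADAMTS12*, *TIMP1*, *TIMP2* and *TIMP3*. The list was set by symbol, but it was drawn up with earlier results of these data in view, so it is not independent of the measured values. Of these genes, 9 were matched by symbol to an identifier among the 30476 in the count table, and all 9 were tested together with the rest of the 13402 genes that passed a filter on low counts. *TIMP2* was not analysed here.

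The RNA came from longissimus dorsi, a muscle of the back, of 3 UCP1 KI pigs and 3 WT pigs, each 6 months old and each giving 1 RNA-seq library. UCP1, the uncoupling protein of thermogenic fat, had been inserted with CRISPR/Cas9 for expression in adipocytes, so the muscle studied is not itself the tissue at which the knock-in was aimed. The sources used here give neither the sex of the pigs nor whether they were littermates, and p values measure the spread between these 6 pigs. *UCP1* was not analysed here, so the genotype labels were not checked against its counts. The study reports finding no *UCP1* mRNA in the muscle of either genotype, so such a check could not tell the groups apart.

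MMPs are zinc-dependent endopeptidases that cleave collagens, other matrix proteins and cell surface proteins. ADAMTS enzymes are secreted proteases with thrombospondin repeats, and they cut proteoglycans or trim procollagens. Both families are made largely by fibroblasts, endothelial and other interstitial cells of muscle, and the TIMPs bind to and block the active site of these enzymes. Most of these enzymes are secreted or displayed as inactive precursors, so an mRNA level does not measure protease activity.

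In the RefSeq annotation of Sscrofa11.1, the build named in the submitters' processing notes, *MMP15* spans chr6:19890867-19912941 and *MMP2* chr6:30059247-30087031, while *MMP14* spans chr7:76174502-76185931. *ADAMTS1* at chr13:190277175-190285957 and *ADAMTS5* at chr13:190353019-190413110 lie 67.1 kb apart. *ADAMTS2* spans chr2:79182901-79406879 and *ADAMTS12* chr16:19547003-19920780. *TIMP3* at chr5:12185816-12242599 lies inside the span of *SYN3*, and *TIMP1* at chrX:42103251-42106289 lies inside that of *SYN1*. *ADAMTS1* shares 239 bases with the protein-coding gene *LOC110256366*, and *ADAMTS2* shares 8890 bases with *LOC102157665*, a long non-coding RNA gene. Neither of these neighbours was matched to an identifier in the counts. The sources used here do not say whether reads were counted by strand, so reads of such overlapping genes could not be told apart. *SYN3* had 7 to 19 counts in any pig, against 5440 to 10676 for *TIMP3*. *SYN1* had 371 to 1099 counts, a range like that of *TIMP1*, which had 244 to 1599.

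Counts on genes summed to between 30220951 and 35066624 per pig. Levels are given below as CPM, counts per 1000000 counts of a library, after scaling of the libraries with edgeR's TMM factors, which were smallest in WT replicate 2 (0.781) and largest in UCP1 KI replicate 2 (1.18). In WT replicate 2 the 20 most abundant genes held 56.5% of the counts, against 39% to 44.8% in the other pigs, so its scaled values depend most on the scaling. The skeletal muscle actin *ACTA1* was present at 30300 to 56000 CPM in every pig, as the tissue label states. A gene is said to pass the limits when its unadjusted edgeR p was under 0.05 and its absolute log2 fold change (UCP1 KI against WT) above 0.5, the limits used by the study. In all, 515 genes rose and 582 fell by these limits, 8.19% of those tested. With these settings no gene had a Benjamini-Hochberg adjusted p under 0.05 in edgeR (1 gene did with library size only, and 1 without the filter on low counts), while 1100 genes (8.21%) had an unadjusted p under 0.05 and DESeq2 gave 127 genes such an adjusted p on the same genes. The member calls below are therefore calls without correction for the number of genes, unless an adjusted p is given.

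The ADAMTS genes accounted for every call among the members. *ADAMTS1*, *ADAMTS2* and *ADAMTS12* fell in UCP1 KI muscle, to 35.1%, 43.4% and 54.7% of the WT mean, and the other 6 members tested did not pass the limits. Thus 3 of 9 members (33.3%) fell and 0 rose, where 4.34% of all genes tested fell and 3.84% rose. The median log2 fold change was −0.65 over the 9 members and −0.02 over all genes tested. Because the list was drawn up with earlier results of these data in view, these shares and medians are description only. With 1 pig left out the member median ran from −0.88 to −0.42, the latter without WT replicate 2. By family, the median was −1.04 for the 4 ADAMTS members, −0.35 for *TIMP1* and *TIMP3*, and 0.08 for the 3 MMP members. The groups did not overlap for 2 members, *ADAMTS1* and *ADAMTS12*, both lower in UCP1 KI pigs, where 7.69% of all genes tested were separated in that direction and 7.59% in the other. In a bulk sample, fewer cells of a type and less RNA per cell cannot be told apart.

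**Figure D1:**
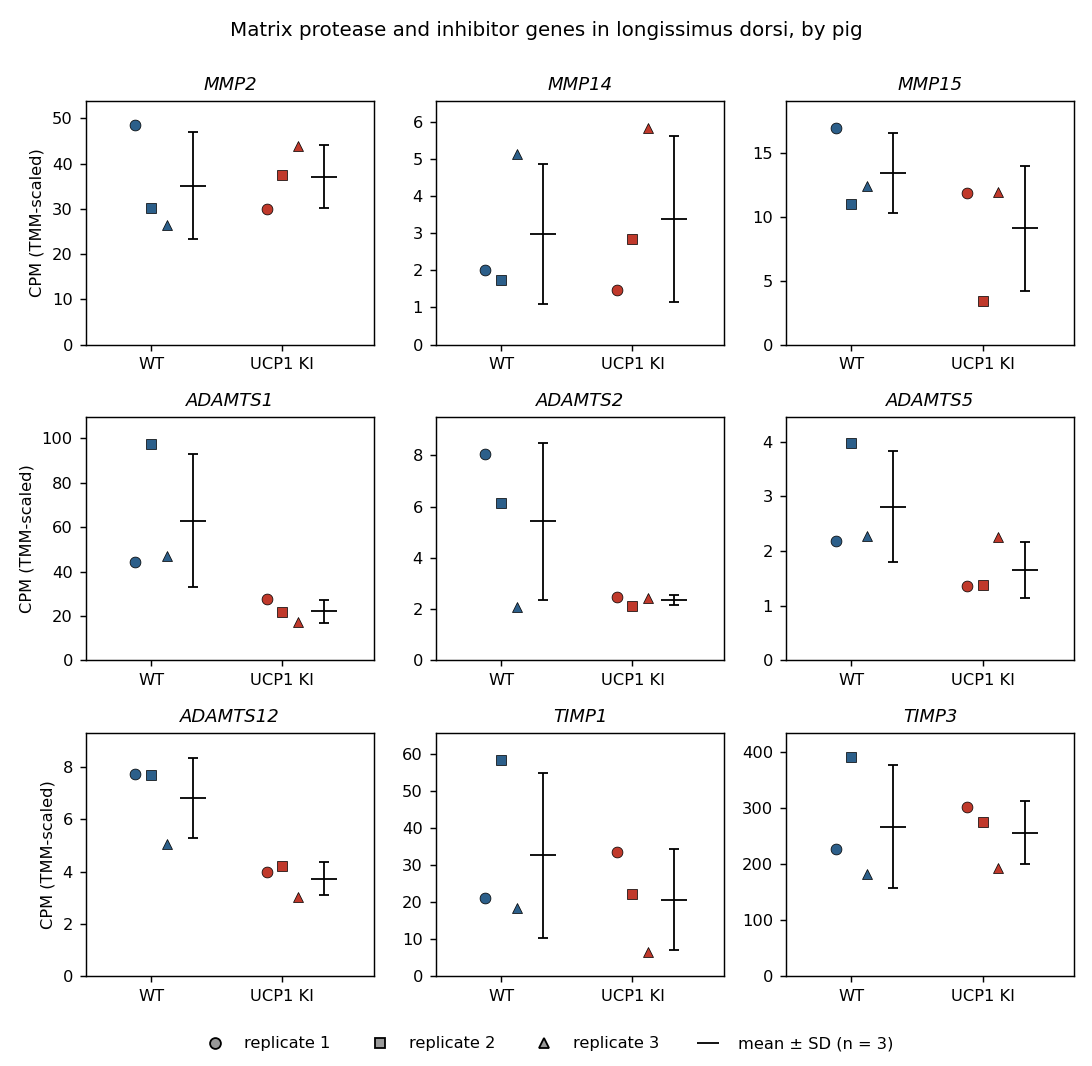
Levels of the 9 members tested, in CPM on a separate linear axis for each gene, with 1 point per pig and the mean ± SD of each group of 3 pigs. The groups are separated for *ADAMTS1* (17.1 to 27.5 CPM in UCP1 KI pigs, 44.4 to 97.4 in WT pigs) and *ADAMTS12*, while those of *MMP2* (29.9 to 43.9 against 26.5 to 48.6 CPM) and *TIMP3* overlap throughout.

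*ADAMTS1*, which cleaves the proteoglycans versican and aggrecan, had the lowest fold change of the members. It was measured at 27.5, 21.6 and 17.1 CPM in UCP1 KI replicates 1 to 3 and at 44.4, 97.4 and 46.8 CPM in WT replicates 1 to 3. The highest UCP1 KI pig lay below the lowest WT pig, and WT replicate 2 stood well above the other WT pigs. The means were 22 ± 5.23 CPM and 62.9 ± 29.9 CPM (SD, n = 3 each), and *ADAMTS1* fell by 1.51 on the log2 scale (SE 0.37, 95% interval −2.37 to −0.65, edgeR unadjusted p = 0.00391, adjusted p = 0.558). By p it ranked 93 among all genes tested. A two-sided exact permutation test on log2(CPM + 1) gave p = 0.1, and no split of 3 pigs from 3 can give less. DESeq2 gave the same log2 fold change of −1.51 with an adjusted p of 0.0371. *ADAMTS1* passed the limits in each of the 6 fits that left out 1 pig, with −1.05 as the smallest change, reached without WT replicate 2.

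*ADAMTS12*, an enzyme that cleaves cartilage oligomeric matrix protein, showed a smaller difference. UCP1 KI pigs had 3.98, 4.21 and 3.02 CPM and WT pigs 7.72, 7.71 and 5.07 CPM. All UCP1 KI pigs lay below all WT pigs, and WT replicate 3 was the nearest to them. Its level fell by 0.87 on the log2 scale (SE 0.30, 95% interval −1.56 to −0.18, edgeR unadjusted p = 0.0201, adjusted p = 0.583), with means of 3.73 ± 0.63 and 6.83 ± 1.52 CPM (SD, n = 3 each). *ADAMTS12* passed the limits in 3 of the 6 fits with 1 pig left out. It missed them without UCP1 KI replicate 3 (edgeR unadjusted p = 0.0627), without WT replicate 1 (edgeR unadjusted p = 0.0546) and without WT replicate 2 (edgeR unadjusted p = 0.0602), at fold changes between −1.04 and −0.74 over all 6 fits. With scaling by library size only the call was lost too (−0.62, edgeR unadjusted p = 0.128).

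*ADAMTS2* encodes the enzyme that removes the amino-terminal propeptide from fibrillar procollagens. Its levels were 2.49, 2.13 and 2.44 CPM in the UCP1 KI pigs, a 1.17-fold span, and 8.05, 6.14 and 2.07 CPM in WT pigs, a 3.89-fold span. WT replicate 3 lay below every UCP1 KI pig, so the groups overlapped, and the difference came from WT replicates 1 and 2. *ADAMTS2* fell by 1.2 on the log2 scale (SE 0.48, 95% interval −2.33 to −0.08, edgeR unadjusted p = 0.0391, adjusted p = 0.603), whereas the exact permutation test gave p = 0.4. Of the 6 fits with 1 pig left out it passed the limits in 1, the fit without WT replicate 3, at −1.59. Scaling by library size only (−0.98, edgeR unadjusted p = 0.0934) and the replicate block (−1.02, edgeR unadjusted p = 0.0819) also ended the call. The reads behind these levels were few, 76 to 92 per UCP1 KI pig and 62 to 292 per WT pig.

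*ADAMTS5*, the main aggrecanase of cartilage and a versican-cleaving enzyme, lies near *ADAMTS1* on chromosome 13 and missed the limits. It stood at 1.36, 1.37 and 2.25 CPM in the UCP1 KI pigs, against 2.18, 3.98 and 2.27 CPM in the WT pigs. UCP1 KI replicate 3 reached the level of WT replicates 1 and 3, and the highest value was again that of WT replicate 2. The log2 fold change was −0.75 (SE 0.41, 95% interval −1.71 to 0.20, edgeR unadjusted p = 0.105), and it stayed outside the limits in all 6 fits with 1 pig left out.

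**Figure D2:**
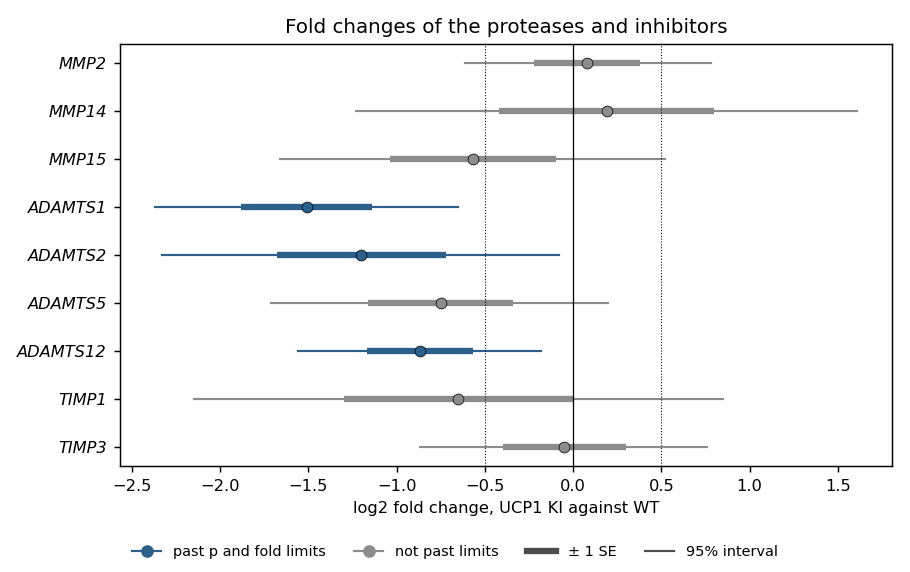
Log2 fold change (UCP1 KI against WT) of each member tested, with ±1 SE as a thick line and the 95% interval as a thin line, blue where the gene passes the limits and with dotted lines at an absolute log2 fold change of 0.5. The 4 ADAMTS genes lie between −1.51 and −0.75, and the intervals of *MMP2*, *MMP14*, *MMP15*, *ADAMTS5*, *TIMP1* and *TIMP3* include 0.

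None of the 3 MMP members passed the limits. *MMP2*, the gelatinase that degrades denatured collagen and basement membrane collagen, was measured at 29.9, 37.6 and 43.9 CPM in the UCP1 KI pigs, against 48.6, 30.2 and 26.5 CPM in the WT pigs. The highest and the lowest level both belonged to WT pigs, with the 3 UCP1 KI pigs between them. Its log2 fold change was 0.08 (SE 0.30, 95% interval −0.61 to 0.78, edgeR unadjusted p = 0.787), so an increase of 0.78 or a decrease of 0.61 on this scale lies within the interval.

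*MMP14*, the membrane-bound enzyme that activates the MMP2 precursor at the cell surface, had levels of 1.46, 2.83 and 5.83 CPM in the UCP1 KI pigs, against 2.01, 1.75 and 5.14 CPM in the WT pigs. Replicate 3 was the highest pig of either group, and the spread within a group (4-fold in UCP1 KI pigs, 2.93-fold in WT pigs) was larger than the difference between the means of 3.37 ± 2.24 and 2.97 ± 1.88 CPM (SD, n = 3 each). The log2 fold change was 0.19 with a 95% interval from −1.23 to 1.61 (edgeR unadjusted p = 0.768).

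*MMP15*, a membrane-type relative of *MMP14*, stood at 11.9, 3.42 and 12 CPM in the UCP1 KI pigs, against 17, 11 and 12.4 CPM in the WT pigs. Only UCP1 KI replicate 2 lay far below the others, and the remaining UCP1 KI pigs lay within the WT range. The log2 fold change of −0.57 (SE 0.47, 95% interval −1.66 to 0.52, edgeR unadjusted p = 0.26) became −0.19 without UCP1 KI replicate 2.

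Among the inhibitors, *TIMP3* is the one that stays bound to the matrix and also blocks ADAMTS enzymes, including ADAMTS5. Its levels were 301, 274 and 193 CPM in the UCP1 KI pigs, against 226, 390 and 182 CPM in the WT pigs. WT pigs held both the highest and the lowest value, and the means of 256 ± 56.4 and 266 ± 110 CPM (SD, n = 3 each) differed by less than the spread between pigs. The log2 fold change was −0.05 (SE 0.35, 95% interval −0.87 to 0.76, edgeR unadjusted p = 0.881). With scaling by library size only it was 0.23, a change of sign, on a scale where the median of all genes tested moved from −0.02 to 0.24.

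*TIMP1*, a soluble inhibitor that is induced by growth factors and inflammatory signals in many cells, had the widest span of the members within the UCP1 KI group. It stood at 33.6, 22.2 and 6.46 CPM in the UCP1 KI pigs, a 5.19-fold span, and at 21.1, 58.4 and 18.5 CPM in WT pigs, a 3.16-fold span. UCP1 KI replicate 3 was the lowest and WT replicate 2 the highest pig, and the other 4 pigs lay between 18.5 and 33.6 CPM. The log2 fold change of −0.65 (SE 0.65, 95% interval −2.15 to 0.85, edgeR unadjusted p = 0.343) became 0.07 without WT replicate 2.

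WT replicate 2 had the highest level of 4 members (*ADAMTS1*, *ADAMTS5*, *TIMP1* and *TIMP3*), WT replicate 1 that of 4 others (*MMP2*, *MMP15*, *ADAMTS2* and *ADAMTS12*) and UCP1 KI replicate 3 that of *MMP14*. With library size alone, where its small TMM factor plays no part, WT replicate 2 was still the highest for *ADAMTS1* (76.1 CPM), *TIMP1* (45.6 CPM) and *ADAMTS5* (3.11 CPM), but for *TIMP3* it stood at 304 CPM below the 323 CPM of UCP1 KI replicate 2.

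The balance of an inhibitor and the protease it acts on was read as a ratio of counts within each library, which no scaling between libraries can change. For *TIMP3* and *ADAMTS5*, UCP1 KI pigs had 222, 199 and 85.7 reads of *TIMP3* per read of *ADAMTS5*, and WT pigs had 104, 97.9 and 80. UCP1 KI replicates 1 and 2 lay above all WT pigs and UCP1 KI replicate 3 within their range, so the groups overlapped. The mean log2 ratio was higher by 0.74 in UCP1 KI pigs (two-sided exact permutation test, p = 0.3, adjusted over 2 ratios 0.5). For *TIMP1* and *MMP2* the ratios were 1.12, 0.591 and 0.147 in the UCP1 KI pigs, against 0.434, 1.94 and 0.698 in the WT pigs. The order was mixed between the groups, with a mean log2 difference of −0.86 (exact permutation p = 0.5, adjusted 0.5). With 1 pig left out the difference ran from 0.48 to 1.17 for *TIMP3* and *ADAMTS5* (1.17 without UCP1 KI replicate 3), and from −1.5 (without UCP1 KI replicate 1) to −0.04 (without UCP1 KI replicate 3) for *TIMP1* and *MMP2*, where it was −0.26 without WT replicate 2.

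The summed level of fibroblast markers was lower in every UCP1 KI pig too. Over the 11 fibroblast markers measured, the level was 851, 756 and 826 CPM in the UCP1 KI pigs, against 1370, 1700 and 1270 CPM in the WT pigs, with no overlap (exact permutation p = 0.1). Of these 11 markers 4 fell, namely *COL1A1*, *COL1A2*, *COL3A1* and *LUM*, while the fibroblast receptor gene *PDGFRA* had means of 10.3 and 10.9 CPM and *DPT*, a matrix protein gene, of 12.2 and 10.9 CPM. Without the 3 collagens the sum was 550, 641 and 534 CPM in the UCP1 KI pigs, against 736, 705 and 676 CPM in the WT pigs. This sum rested mainly on *GSN*, the actin-severing gelsolin that muscle fibres also express, which made up 61.8% to 72.7% of it and was at 366, 454 and 350 CPM in the UCP1 KI pigs, against 480, 436 and 492 CPM in the WT pigs. Without *GSN* as well, the other 7 markers summed to 184, 187 and 184 CPM against 256, 269 and 184 CPM, and the groups overlapped at WT replicate 3 (exact permutation p = 0.2).

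Each member was therefore also given as reads per 1000 reads of the summed fibroblast markers in the same library. *ADAMTS1* had 32.3, 28.5 and 20.7 such reads in the UCP1 KI pigs, against 32.4, 57.4 and 36.7 in the WT pigs. UCP1 KI replicate 1 and WT replicate 1 were almost level, so that the groups only just failed to overlap, and the mean log2 difference was −0.61 (exact permutation p = 0.1, adjusted over 9 ratios 0.45). With 1 pig left out this difference ran from −0.78 without WT replicate 1 to −0.37 without WT replicate 2. *TIMP3* was separated the other way, with 354, 362 and 234 reads in the UCP1 KI pigs, against 165, 230 and 142 in the WT pigs, and a log2 difference of 0.82 (exact permutation p = 0.1, adjusted 0.45). For the other members that fell, the difference on this scale was nearer to 0: it was −0.03 on the log2 scale for *ADAMTS12* (exact permutation p = 0.9) and −0.17 for *ADAMTS2* (exact permutation p = 0.7).

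The reference chosen decides part of this. Without *GSN* the log2 difference of *ADAMTS1* was −0.22 (exact permutation p = 0.6) and the separation was lost, while that of *TIMP3* was 1.22 (exact permutation p = 0.1). Those of *ADAMTS2* and *ADAMTS12* turned positive with this set of markers. Against the 8 markers without collagens, a sum that is mostly *GSN*, the log2 difference of *ADAMTS1* was −1.14 and that of *ADAMTS12* was −0.56 (exact permutation p = 0.1 for each), that of *ADAMTS2* was −0.69 (exact permutation p = 0.4), and that of *TIMP3* was 0.30 (exact permutation p = 0.5). With neither collagens nor *GSN*, *ADAMTS1* was at −1.11 and *ADAMTS12* at −0.52 (exact permutation p = 0.1 for each). *MMP2* was at 0.94 against all fibroblast markers (exact permutation p = 0.2) at 0.42 without the collagens, and at 1.34 without *GSN* (exact permutation p = 0.1). The part of the fibroblast markers in the fall of the ADAMTS genes was not tested.

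**Figure D3:**
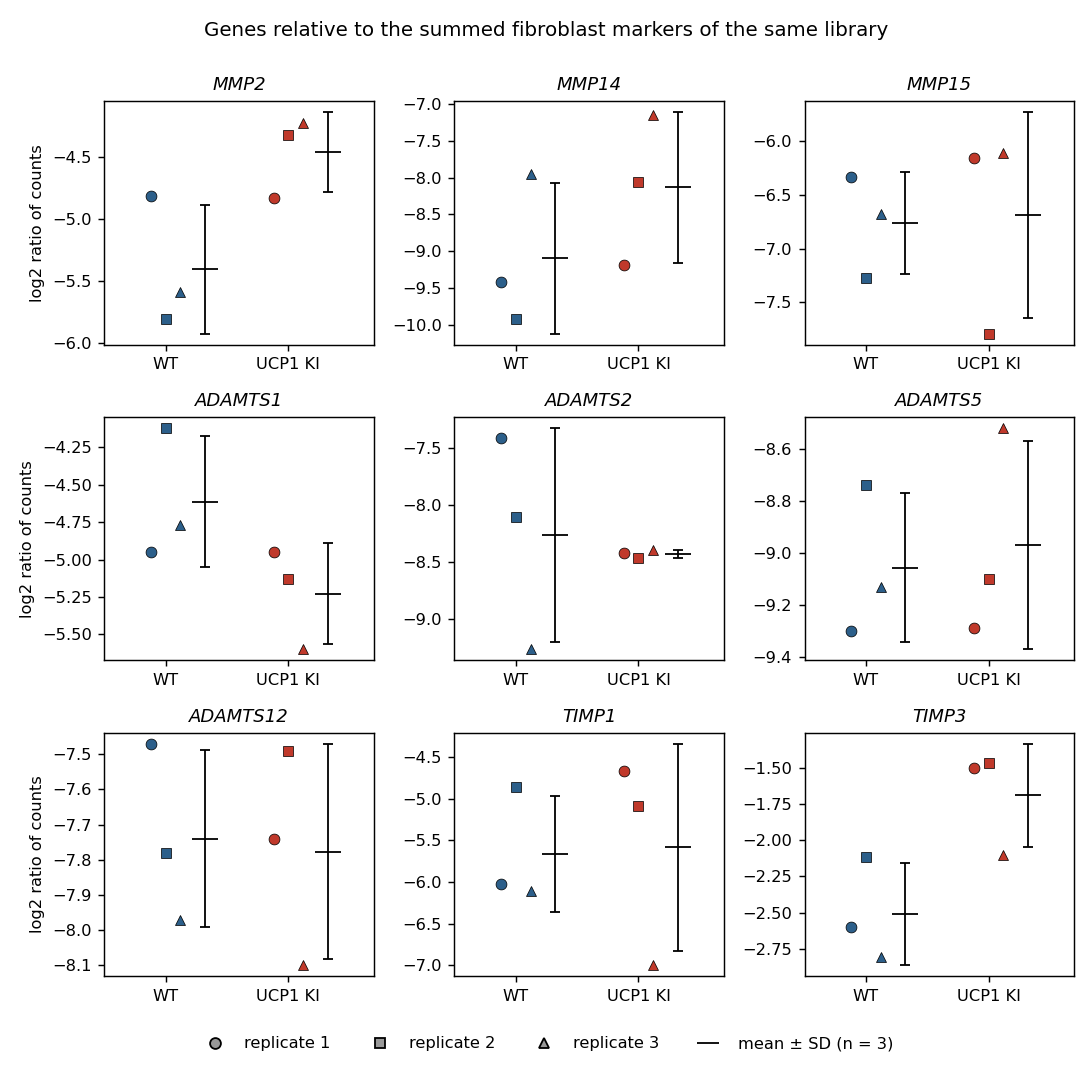
Log2 ratio of each member's counts to the summed counts of 11 fibroblast markers in the same library, with 1 point per pig for the 3 UCP1 KI and 3 WT pigs. The groups are separated for *ADAMTS1*, lower in UCP1 KI pigs by 0.61 on average, and for *TIMP3*, higher by 0.82, with this set of markers.

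Markers of other cells were summed in the same way, and the sums overlapped between the groups for every other cell type listed. The 6 endothelial markers summed to 601, 639 and 355 CPM in the UCP1 KI pigs, against 600, 521 and 324 CPM in the WT pigs (exact permutation p = 0.5), and 1 of them, the angiopoietin receptor gene *TEK*, rose (log2 fold change 1.2, edgeR unadjusted p = 0.00123). The median log2 fold change of the endothelial list was 0.09. The 6 mural cell markers summed to 336, 349 and 256 CPM against 682, 546 and 304 CPM (exact permutation p = 0.3), all 6 had negative fold changes (median −0.92) and 1, the Notch receptor gene *NOTCH3*, passed the limits. Without WT replicate 1 *NOTCH3* was at −0.43 in place of −1.02 and lost its call, as it did with the replicate block, with library size only and in 2 further fits with 1 pig left out. The 6 leukocyte markers ranged from 22.5 to 65.4 CPM in sum in UCP1 KI pigs and from 21.2 to 41.6 CPM in WT pigs, and all 6 had positive fold changes (median 0.65). The T cell gene *CD3E* was the 1 that passed the limits, at 2.91, 7.04 and 1.03 CPM against 1.27, 0.621 and 1.17 CPM. Its fold change of 1.84 rested on UCP1 KI replicate 2, without which it was 0.95 (edgeR unadjusted p = 0.176), and the call held in 2 of 6 fits with 1 pig left out and was lost with the replicate block. The 6 adipocyte markers ranged from 60.6 to 208 CPM and from 70.9 to 362 CPM in sum, both groups having their highest value in replicate 2. All 5 that were tested had negative fold changes (median −1.13), and 0 passed the limits. Schwann cell markers (51.6 to 66.1 CPM over all pigs) and satellite cell markers (37.5 to 57.2 CPM) overlapped between the groups, as did the 3 muscle fibre markers measured (47500 to 94100 CPM). The fibroblast list, for comparison, had negative fold changes in 9 of 11 markers and a median of −0.39. The part of these cell types in the levels of the members was not tested.

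*ADAMTS1* is known as a gene that responds rapidly to stimulation, and the immediate early genes were therefore looked at. The 10 measured summed to 1180, 1020 and 671 CPM in the UCP1 KI pigs, against 1460, 1290 and 1570 CPM in the WT pigs, with no overlap (exact permutation p = 0.1). *FOSB*, *IER2* and *NR4A1*, transcriptional regulators induced within minutes of a stimulus, fell by 1.48, 1.04 and 1.19 on the log2 scale, and the other 7 did not pass the limits. Of the 10, *ATF3* had the largest difference between group means (232 CPM in UCP1 KI pigs, 450 CPM in WT pigs). It lay outside the limits at −0.96 (edgeR unadjusted p = 0.0694). Only *JUNB* had a positive fold change (0.70). *FOS*, at 334, 169 and 178 CPM in the UCP1 KI pigs, against 171, 319 and 341 CPM in the WT pigs, overlapped between the groups. The part of these genes in the fall of *ADAMTS1* was not tested.

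The rest of each family was examined as lists of genes. Of 20 other MMP genes, 9 could be tested and 1 fell, *MMP23B*, a membrane-anchored MMP that is released by cleavage. It had 0.517, 0.449 and 0.371 CPM in the UCP1 KI pigs, against 2.12, 3.43 and 0.768 CPM in the WT pigs. The groups did not overlap, although WT replicate 3 was close to the UCP1 KI pigs, and the reads were few (14 to 16 and 23 to 94 per pig). *MMP23B* fell by 2.23 on the log2 scale (SE 0.60, edgeR unadjusted p = 0.00649, adjusted p = 0.583) and passed the limits in all 6 fits with 1 pig left out.

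Of the other 8 MMP genes tested, 7 had negative fold changes outside the limits and *MMP24* a positive one (0.56). The collagenases *MMP1* and *MMP13*, the gelatinase *MMP9* and the neutrophil collagenase *MMP8* had 6 counts or fewer in every pig, where 3 counts correspond to 0.0795 to 0.11 CPM, and no difference was detectable at this depth.

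Of 15 other ADAMTS genes, 11 were tested, 9 with negative fold changes, and 0 passed the limits in edgeR, which gave the list a median of −0.58. *ADAMTS20*, with 13.2 ± 4.72 and 20.5 ± 5.88 CPM (SD, n = 3 each), was at −0.63 (edgeR unadjusted p = 0.108), and *ADAMTS10*, known for its part in microfibrils, at −0.12. Together with the members, 3 of 15 ADAMTS genes tested fell (20%), and 1 of 12 MMP genes (8.33%), where 4.34% of all genes tested fell, and whether these shares differ was not tested.

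The ADAMTS-like proteins share the repeats of ADAMTS enzymes but lack the protease domain. All 7 were tested and all 7 had negative fold changes, with a median of −0.83. *ADAMTSL3* and *PAPLN* fell by 1.03 and 1.02 on the log2 scale (edgeR unadjusted p = 0.0289 and 0.0293). *ADAMTSL3* stood at 2.46, 2.55 and 2.73 CPM in the UCP1 KI pigs, against 7.64, 5.11 and 3 CPM in the WT pigs, so that WT replicate 3 was again the WT pig nearest to the UCP1 KI pigs. With 1 pig left out, *ADAMTSL3* passed the limits in 1 of 6 fits and *PAPLN* in 2. Both lost their calls with library size only (−0.80 for each, edgeR unadjusted p = 0.119 and 0.118), and *ADAMTSL3* with the replicate block too (−0.93, edgeR unadjusted p = 0.0586).

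Among 10 ADAM genes tested, the membrane-bound relatives of the ADAMTS enzymes, 1 fell. *ADAM33* was at 5.66, 3.14 and 3.58 CPM in the UCP1 KI pigs, against 20.4, 10.7 and 5.37 CPM in the WT pigs, and fell by 1.56 on the log2 scale (SE 0.50, edgeR unadjusted p = 0.0150), in spite of an overlap of WT replicate 3 with UCP1 KI replicate 1. It kept its call in 4 of 6 fits with 1 pig left out, and lost it without WT replicate 1 (−0.97, edgeR unadjusted p = 0.066) and without UCP1 KI replicate 2 (−1.41, edgeR unadjusted p = 0.0542). Of 6 other protease inhibitors tested, among them *TIMP4* (−0.49) and *RECK* (−0.53), 0 passed the limits. The same held for all 7 genes tested of MMP activation and the plasmin system and all 5 of procollagen processing. *PLAU*, the urokinase gene, had 157, 47.1 and 7.02 CPM in the UCP1 KI pigs, against 48.6, 72.5 and 14.9 CPM in the WT pigs. As for *TIMP1*, its level was highest in replicate 1 and lowest in replicate 3 of the UCP1 KI group, a likeness that was noticed after the values were seen.

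**Figure D4:**
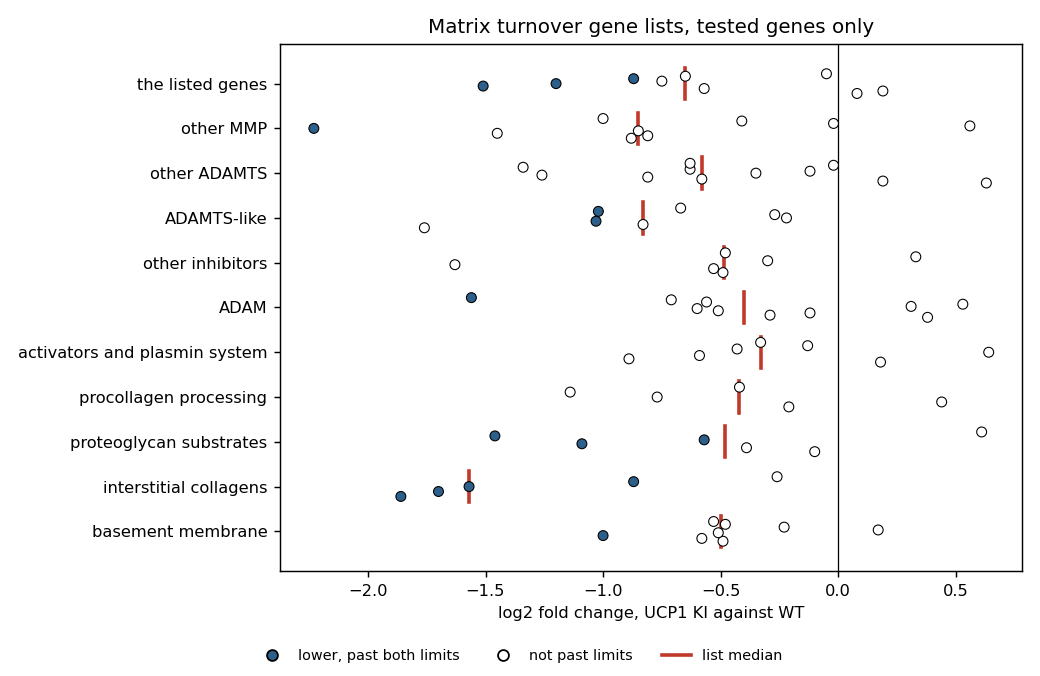
Log2 fold change (UCP1 KI against WT) of every tested gene in the members and 10 further lists of matrix genes, 1 circle per gene, filled where the gene fell by the limits, with a red bar at the median of each list. The interstitial collagens have the lowest median, −1.57, and the members lie at −0.65.

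Several substrates of these enzymes fell as well. Of 5 interstitial collagen genes 4 fell, with *COL1A1* at 44, 29.4 and 35.8 CPM in the UCP1 KI pigs, against 115, 180 and 101 CPM in the WT pigs. That is a decrease of 1.86 on the log2 scale (SE 0.31, edgeR unadjusted p = 0.000361). *COL1A2* fell by 1.7, *COL3A1* by 1.57 and *COL5A1* by 0.87, and *COL5A2* was at −0.26 (edgeR unadjusted p = 0.658). With 1 pig left out, *COL1A1* and *COL1A2* kept their calls in 6 of 6 fits, *COL3A1* in 5 and *COL5A1* in 3, and *COL5A1* lost its call with library size only. *COL1A1*, *COL1A2* and *COL3A1* are also fibroblast markers above. *PCOLCE*, whose product speeds the removal of the carboxy-terminal propeptide of procollagen, was lower in every UCP1 KI pig (45.8, 9.7 and 28.2 against 64.7, 71.3 and 48.6 CPM) but missed the limits (log2 fold change −1.14, edgeR unadjusted p = 0.0555).

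Of 6 proteoglycan genes tested, *BGN*, *FMOD* and *LUM*, small leucine-rich proteoglycans that bind collagen fibrils, fell by 1.09, 1.46 and 0.57 on the log2 scale. With 1 pig left out these calls held in 2, 2 and 1 of 6 fits, and *FMOD* moved as far as −2.19 without UCP1 KI replicate 1. *BGN* and *LUM* also lost their calls with library size only (*LUM* at −0.31), *LUM* with the replicate block as well. On all genes with any count, *LUM* lost its call in DESeq2 (unadjusted p = 0.0605) and in edgeR (unadjusted p = 0.0615). *VCAN*, which encodes the ADAMTS substrate versican, had means of 8.1 ± 0.516 and 8.7 ± 2.42 CPM (SD, n = 3 each) and a log2 fold change of −0.10. Of 8 basement membrane genes tested, *LAMA4*, a laminin chain of vessel walls, fell by 1 on the log2 scale (edgeR unadjusted p = 0.0126), and *COL4A1* and *COL4A2*, substrates of the gelatinases, were at −0.49 and −0.58 outside the limits.

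**Figure D5:**
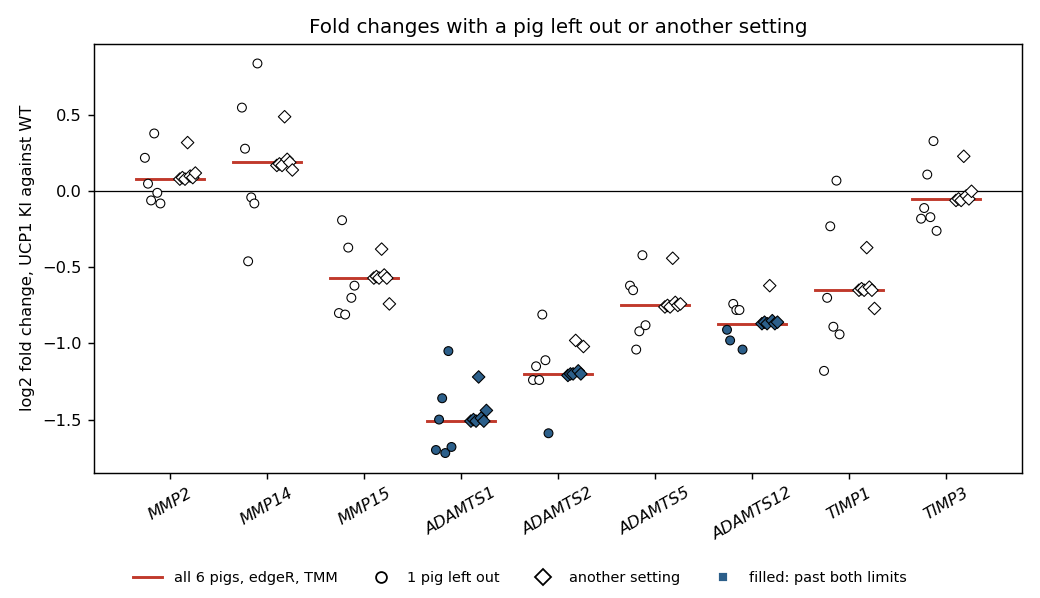
Log2 fold change of each member under other settings, with a red line for the reported value, circles for fits that left out 1 pig, diamonds for other tools, scalings, filters or a replicate block, and filled symbols where the gene passes the limits. *ADAMTS1* is filled throughout, between −1.72 and −1.05, while *MMP2*, *MMP14*, *TIMP1* and *TIMP3* have symbols on both sides of 0.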

How the data were processed

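Per the labels, total RNA of 6 muscles was extracted with TRIzol. The submitters' processing notes name FastQC 0.11.2, Trimmomatic 0.36, HISAT2 2.0, bedtools 2.26.0, StringTie 1.3.3b, DESeq2 1.12.4 and the build Sscrofa11.1. The authors deposited raw counts per Ensembl gene without normalization, and 0 columns were left unused. The counting program, annotation release and strand handling are not given in the sources used here. Of counts from 1 to 10, 60.9% were even (48.6% from 101 to 110), so low counts may not be independent reads, and the limit of 3 counts covers counting error only.

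The gene counts were fitted by edgeR 4.0.16 in R 4.3.3 (filterByExpr, TMM, quasi-likelihood F test, two-sided, genotype as the only term), with adjustment by the Benjamini-Hochberg procedure over all 13402 genes. SE is the log2 fold change divided by the square root of F. Exact permutation tests used log2(CPM + 1) or log2 ratios. The procedure was run on simulated counts with the same dispersion (0.178) for all genes. Apart from the changed genes, all simulated libraries had the same make-up. Such counts do not test the scaling between libraries or the differing spread of single genes. Symbols came from a table of gene names and positions from RefSeq by symbol. *TIMP2* has a RefSeq position but matched no identifier in the table of names, so 2 of 4 planned ratios were not computed.

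Members and lists were chosen with earlier results of these data known. All members were named, and from other lists the genes past the limits or, where there were 0, the 2 with the highest mean CPM, plus some named after their values were seen. Not every gene so chosen is reported here. Alternatives were DESeq2 1.42.0, other scalings, filters, pseudocounts and marker lists, no fold change limit, the replicate number as a block, and each pig left out. Fibroblast markers without *GSN* were added after seeing the data.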

Additional observations from a re-analysis of the deposited data

How the results depend on the processing

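Of 117 alternative values for single members, 96 kept the direction and the side of the limits, 11 lost the call and 10 changed sign. With library size only, the median of all genes tested moved from −0.02 to 0.24, 929 genes rose and 195 fell (82.7% of calls higher, against 46.9%), 1 member and 7 genes of the wider lists fell, and the member median was −0.38. *ADAMTS1* kept its call there (−1.22), *ADAMTS12* (−0.62, edgeR unadjusted p = 0.128) and *ADAMTS2* (−0.98, edgeR unadjusted p = 0.0934) lost theirs, and *TIMP3* turned to 0.23 as a fold change and to 0.25 as a difference of log2(CPM + 1). The cause was not tested. Leaving out 1 pig gave 289 to 750 genes higher and 386 to 791 lower, 1 to 3 members lower (1 when UCP1 KI replicate 3 or either of WT replicates 1 and 2 was left out), 5 to 18 wider genes lower and 0 to 1 higher (1 without WT replicate 2). Log2 fold changes then ran from −0.08 to 0.38 for *MMP2*, −0.46 to 0.84 for *MMP14*, −1.18 to 0.07 for *TIMP1* and −0.26 to 0.33 for *TIMP3*. Ratios to fibroblast markers ran from −0.22 to 0.62 for *MMP15*, −0.67 to 0.26 for *ADAMTS2*, −0.14 to 0.24 for *ADAMTS5*, −0.18 to 0.13 for *ADAMTS12* and −0.38 to 0.79 for *TIMP1*, and without the collagens those of *MMP15*, *ADAMTS5* and *TIMP1* turned to −0.45, −0.44 and −0.45 (−0.42, −0.41 and −0.41 without *GSN* too). Without *GSN* alone, *ADAMTS2* and *ADAMTS12* turned to 0.23 and 0.36.

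Pigs of the 2 groups share replicate numbers. The deviations of same-numbered pigs from their group means had correlations of 0.00383, 0.0943 and 0.283. Those of differently numbered pigs ran from −0.201 to 0.129, so the replicate 3 pigs had the highest value of all. The numbers were not taken as pairs, and whether they mark shared handling was not tested. With the number as a replicate block, 544 genes rose and 570 fell, and *ADAMTS2* lost its call (−1.02, edgeR unadjusted p = 0.0819), leaving 2 members lower. Levels under about 0.1 CPM lie near the limit that 3 counts set, and 3 pigs a group cannot give an exact permutation p below 0.1.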
